A study of Mus musculus with 12 samples.

Results

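The transcripts of matrix metalloproteinases and of their tissue inhibitors were examined in mouse left ventricle. The 10 genes were chosen by name and were 6 metalloproteinases, Mmp2, Mmp3, Mmp8, Mmp9, Mmp14 and Mmp15, and the 4 inhibitors Timp1 to Timp4, out of 18079 genes measured. The data came from 12 mice of the labelled strain C57BL/6 (C57BL/6J in the methods), 3 in each of 4 groups. DMSO+Sham mice received the solvent DMSO and a sham operation, and DMSO+AB mice received DMSO and aortic banding (AB), in which a ligature narrows the descending aorta and loads the left ventricle with pressure. Hispidulin+Sham and hispidulin+AB mice received hispidulin, a plant flavonoid, by daily intraperitoneal injection at 20 mg/kg/day. Injections of DMSO or hispidulin started 1 day ahead of the operation in mice labelled as 8 weeks old and went on until left ventricular muscle was taken 4 weeks later, at a labelled age of 12 weeks. The methods give a range of ages at the operation that starts at the labelled age. No group was left without an operation or without an injection, and whole muscle was used, so each value is a sum over all cell types of the ventricle.

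Matrix metalloproteinases are zinc enzymes that cut collagens and other proteins of the extracellular matrix, and most are made as inactive proenzymes that have to be cleaved. Tissue inhibitors of metalloproteinases (TIMPs) bind the active enzymes and block them. In the heart, the balance between both families is known to set how the matrix is rebuilt under load. MMP2 and MMP9 are gelatinases, MMP3 is a stromelysin, MMP8 is the collagenase stored in neutrophils, and MMP14 and MMP15 are anchored in the cell membrane. MMP14 together with TIMP2 activates the MMP2 proenzyme at the cell surface.

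Expression was read as FPKM, a fragment count divided by transcript length and library size, so levels can be set beside each other between genes. The depth behind the FPKM is unknown, and no counting error can be given. FPKM summed to between 535235 and 567027 per mouse. The summed cardiomyocyte markers ran from 43729 to 62310, the highest sum of the 9 marker lists in every mouse. The third DMSO+Sham mouse stood apart, with the highest value of the 12 mice in 22.12% of the genes tested. Its sum of neutrophil markers was 66.7 against 1.06 to 38.6 in the other 11 mice, its sum of macrophage markers was 577 against 270 to 539, and its cardiomyocyte sum was the lowest. The third DMSO+AB mouse stood apart too, with the lowest value of the 12 mice in 2642 genes tested and the highest in 14.81%. Its median log2 distance from its group mates was the largest, at 0.2215 against 0.2086 for the third DMSO+Sham mouse. The atrial light chain Myl7 was at 333, 67.5 and 42.3 in the third hispidulin+Sham, the second DMSO+AB and the third hispidulin+AB mouse and at 15.0 or less in the rest. Results are therefore also given without these libraries where that moves them.

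Timp3, an inhibitor that binds to the matrix itself, was the most abundant member in 12 of 12 mice, with a median of 122 FPKM. Timp4, the inhibitor best known from heart, followed with a median of 58.0, and Timp2 with 43.7. Timp4 exceeded Timp2 in 9 of 12 mice, so that the order of these neighbours varied between mice. Mmp2 had a median of 23.6 and Mmp15 of 20.3, and Mmp2 was above Mmp15 in 7 of 12 mice. Timp1 (median 9.86) and Mmp14 (median 5.60) also changed places, with Timp1 above Mmp14 in 7 of 12 mice. Mmp3 followed with a median of 2.99, and Mmp8 and Mmp9 lay last with 0.33 and 0.32. The spread between mice was unequal. The highest mouse exceeded the lowest by 1.5 times for Timp4 and 1.52 times for Timp3, by 5.83 times for Mmp2, by 14.3 times for Timp1 and by 17.4 times for Mmp3.

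**Figure D1:**
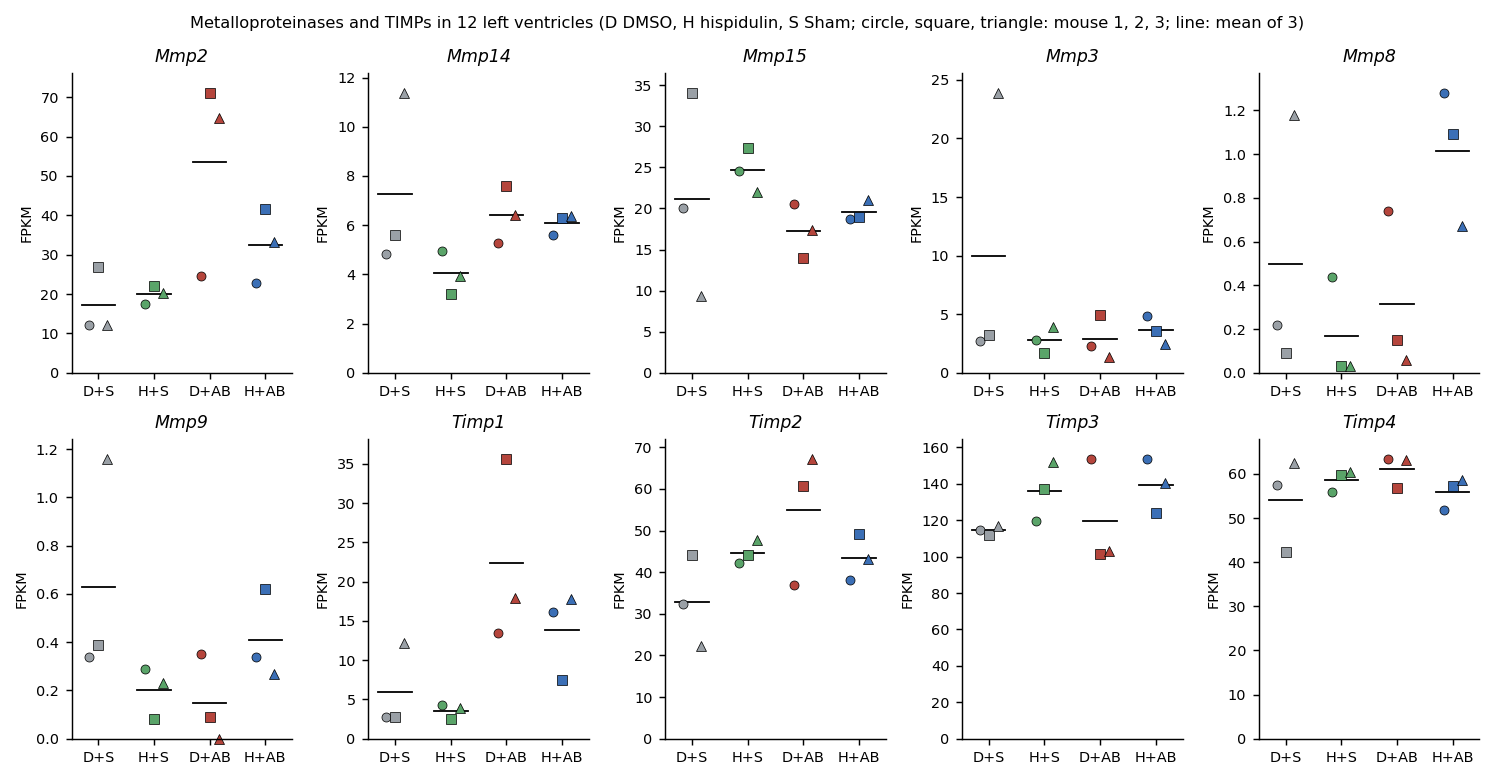
FPKM of the 10 genes (vertical axes, linear, each from 0) in the 12 mice by group, with circle, square and triangle for mouse 1, 2 and 3 and a line at the mean of the 3 mice. All 3 DMSO+AB mice lie above all 3 DMSO+Sham mice for Timp1, and the third DMSO+Sham mouse is the highest of 12 for Mmp3, Mmp9 and Mmp14.

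Genes that reached 1 FPKM in 3 or more mice were tested, and these were 9 of the 10. Mmp9 was the exception. In DMSO+AB against DMSO+Sham, 2 of the 9 passed an adjusted p of 0.05 in limma, Mmp2 and Timp1, both higher after banding. Over all 11664 genes tested, 5.21% passed, 2.5% as higher and 2.71% as lower. At an unadjusted p under 0.05 there were 3 of the 9 members, with Timp2 as the third, and 20.4% of all genes. With AB set against Sham over both treatments together, the same 2 genes passed, against 7.39% of all genes and 3.52% as higher. In hispidulin+AB against hispidulin+Sham, in hispidulin+AB against DMSO+AB, in hispidulin+Sham against DMSO+Sham and in the interaction of hispidulin and AB, limma called 0 members and 0% of all genes. Without the first DMSO+AB mouse these were 9, 20, 0 and 3 genes, with no member among them. Mmp8 reached 1 FPKM in 3 mice only, of which 2 were hispidulin+AB mice, so it was tested because of the group in which it was high, and its differences from that group are given with no test. Of the other members, Timp1 had an unadjusted p under 0.05 in hispidulin+AB against hispidulin+Sham, Mmp14 in hispidulin+Sham against DMSO+Sham, Timp2 in the interaction and none in hispidulin+AB against DMSO+AB, against 7.26%, 2.46%, 2.48% and 3.1% of all genes. The median difference of the 9 members in DMSO+AB against DMSO+Sham was 0.032 on the log2(FPKM + 1) scale, and that of all genes was -0.035.

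**Figure D2:**
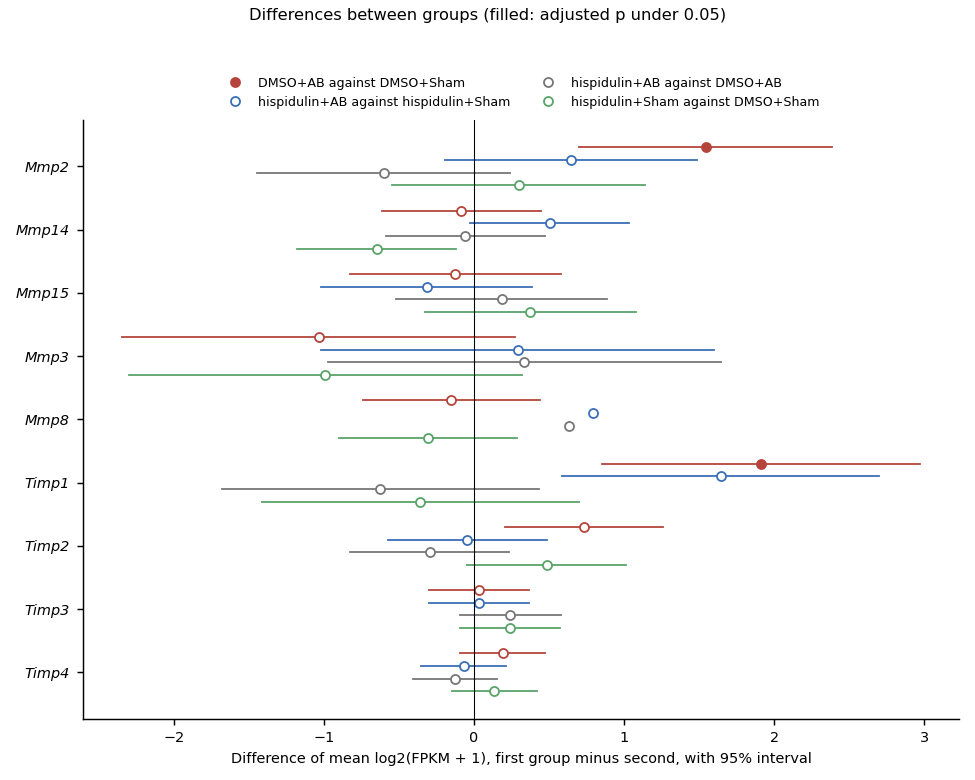
Difference of the group means of log2(FPKM + 1) with its 95% interval from limma for the 9 genes tested, in 4 comparisons (colours, first group minus second), with filled points for an adjusted p under 0.05. Mmp8 passed the filter through its hispidulin+AB mice and has no interval in the comparisons with that group. Only the points of Mmp2 and Timp1 in DMSO+AB against DMSO+Sham are filled.

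Mmp2, the gelatinase of fibroblasts, stood at 12.2, 26.9 and 12.2 FPKM in the 3 DMSO+Sham mice and at 24.5, 71.1 and 64.7 in the 3 DMSO+AB mice. It was 17.6, 22.0 and 20.2 in the hispidulin+Sham mice and 22.7, 41.6 and 33.2 in the hispidulin+AB mice. After DMSO, the first AB mouse lay below the second Sham mouse and the groups overlapped, whereas with hispidulin every AB mouse lay above every Sham mouse. On the log2(FPKM + 1) scale, Mmp2 rose by 1.10 ± 0.27 (SE, 6 AB mice against 6 Sham mice) over both treatments, with an adjusted p of 0.0322 from limma. The exact permutation test of that difference, with labels permuted within DMSO and within hispidulin, gave a two-sided p = 0.015 over 400 arrangements. Between hispidulin+AB and hispidulin+Sham the difference was 0.65 ± 0.39 (SE), and between hispidulin+AB and DMSO+AB it was -0.60 ± 0.39 with a 95% interval from -1.44 to 0.24. With 1 mouse left out the latter ran from -1.08, without the first DMSO+AB mouse, to -0.33, without the second, and it was -0.40 without the third DMSO+AB and -0.37 without the first hispidulin+AB mouse. The interaction was -0.90 ± 0.55 (limma, adjusted p = 0.9995), so the size of the banding effect was not shown to differ between DMSO and hispidulin.

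The call of Mmp2 depended on which mice were in the model. In DMSO+AB against DMSO+Sham (difference 1.54 ± 0.39, adjusted p = 0.0416 in limma), it was kept in 2 of 12 models that each left out 1 mouse, those without the second DMSO+Sham or the first DMSO+AB mouse. Without any 1 of the other 10 mice the adjusted p from limma was between 0.0531 and 0.153, and over all 23 alternative settings it ran from 0.00397 to 0.276. Without the third DMSO+AB mouse the difference was 1.34 (adjusted p = 0.137 in limma). For AB against Sham over both treatments, it was kept without the second or the third DMSO+Sham, the first DMSO+AB or the first hispidulin+AB mouse. Without any 1 of the other 8 mice the adjusted p was between 0.0625 and 0.0836, and the range over all settings was 0.00352 to 0.254. The difference itself stayed between 0.96 and 1.33 in these models. Animal numbers in the labels fall into separate series, which the labels do not call a batch. Within them, DMSO+AB minus DMSO+Sham was 1.24 (1 mouse against 1) and 1.70 (2 against 1), and hispidulin+AB minus hispidulin+Sham was 0.73 (1 against 2) and 0.59 (2 against 1).

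Of 10 fibroblast markers, 4 were called over both treatments, all higher, with a median difference of 0.45 and all 10 above 0. Between DMSO+AB and DMSO+Sham 4 were called, all higher, with a median of 0.78 and all 10 above 0, against 1.54 for Mmp2. In hispidulin+AB against hispidulin+Sham limma called 0, and 1 had an unadjusted p under 0.05, with a median of 0.12 and 8 of 10 above 0, against 0.65 for Mmp2. Their summed FPKM was 959 to 1163 in DMSO+Sham, 1110 to 1742 in DMSO+AB, 1085 to 1285 in hispidulin+Sham and 1156 to 1388 in hispidulin+AB, so that the groups overlapped after either treatment. Of the 4 called over both treatments, Mfap5, a microfibril protein, rose by 1.83 ± 0.26 (adjusted p = 0.00328 in limma), Col1a1 by 1.42 ± 0.33 (adjusted p = 0.0236) and the filament protein Vim by 0.67 ± 0.17 (adjusted p = 0.0392). In bulk muscle, more fibroblasts and more RNA per fibroblast cannot be told apart, and the part of either in the Mmp2 result was not tested. Collagen chains were also the genes with the closest pattern to Mmp2 over the 12 mice, Col1a1 with a Pearson r of 0.991 and Col1a2 with 0.984 on the log2 scale, followed by the proteoglycan Bgn with 0.98. Without the third DMSO+Sham mouse these were 0.989, 0.985 and 0.979. They are given as a description, since the 12 points share 4 group means and the genes were picked for the highest r.

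Mmp14, the membrane enzyme that takes part in MMP2 activation, stood at 4.82, 5.60 and 11.38 FPKM in DMSO+Sham and at 5.27, 7.59 and 6.42 in DMSO+AB. It was 4.96, 3.20 and 3.95 in hispidulin+Sham and 5.59, 6.28 and 6.38 in hispidulin+AB. With hispidulin all AB mice lay above all Sham mice, and after DMSO the groups overlapped, with the third Sham mouse as the highest of 12. The difference was -0.08 ± 0.24 (SE) after DMSO and 0.50 ± 0.24 with hispidulin, and neither passed (adjusted p = 0.881 and 0.703 in limma). Without the third DMSO+Sham mouse, the difference after DMSO was 0.25. Mmp2 was 4.65 to 10.1 times as abundant as Mmp14 in DMSO+AB and 1.08 to 4.80 times in DMSO+Sham, where the third mouse was the lowest. It was 4.07 to 6.63 times as abundant in hispidulin+AB and 3.54 to 6.87 times in hispidulin+Sham, and the groups overlapped after either treatment.

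Timp2, the partner of MMP14 in that activation, stood at 32.3, 44.1 and 22.2 FPKM in DMSO+Sham and at 36.9, 60.8 and 67.3 in DMSO+AB. It was 42.3, 44.1 and 47.8 in hispidulin+Sham and 38.0, 49.1 and 43.2 in hispidulin+AB, where the groups overlapped too. The difference after DMSO was 0.73 ± 0.24 (SE, limma, adjusted p = 0.109), and with hispidulin it was -0.05 ± 0.24 with a 95% interval from -0.58 to 0.48. The interaction was -0.78 ± 0.34, with an unadjusted p of 0.0426 in limma and an adjusted p of 0.9995. Timp2 passed in DMSO+AB against DMSO+Sham without the second DMSO+Sham mouse (adjusted p = 0.0284 in limma), without the first DMSO+AB mouse (0.0217) or with library weights (0.0374). Over the 12 models that left out 1 mouse the adjusted p ran from 0.0217 to 0.274, and 10 of them did not call it. The difference ran from 0.49, without the third DMSO+Sham mouse, to 0.99, without the first DMSO+AB mouse. The ratio of Mmp2 to Timp2 FPKM was 0.378 to 0.609 in DMSO+Sham and 0.665 to 1.17 in DMSO+AB, and 0.416 to 0.499 in hispidulin+Sham and 0.598 to 0.848 in hispidulin+AB. After either treatment, the ratios of the AB mice lay above those of the Sham mice, and after DMSO the closest were 0.609 and 0.665. How often ratios of other genes do so was not computed. Of single genes tested, 17.9% had no overlap after DMSO and 20.9% with hispidulin.

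Mmp15, the other membrane-anchored enzyme, stood at 20.0, 34.1 and 9.40 FPKM in DMSO+Sham, at 24.6, 27.4 and 22.0 in hispidulin+Sham, at 20.6, 13.9 and 17.4 in DMSO+AB and at 18.8, 19.0 and 21.0 in hispidulin+AB. With hispidulin every AB mouse lay below every Sham mouse, and after DMSO the Sham mice held both the lowest and the highest value of all 12. The differences were -0.31 ± 0.32 (SE) with hispidulin and -0.12 ± 0.32 after DMSO, and neither passed. Both have the same SE because it uses the spread of all 4 groups, with the widely spread DMSO+Sham mice among them. The genes closest to Mmp15 over the 12 mice were Fsd2 (r = 0.982), the potassium channel gene Kcnn2 (0.967) and Reep1 (0.959), and all 3 were lowest in the third and highest in the second DMSO+Sham mouse, as was Mmp15.

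Mmp3 stood at 2.75, 3.19 and 23.9 FPKM in DMSO+Sham, and at 1.37 to 4.91 in the other 9 mice. The third DMSO+Sham mouse thus carried 8.04 times the mean of the other DMSO+Sham mice. The difference of DMSO+AB against DMSO+Sham was -1.03 ± 0.60 (SE, limma, adjusted p = 0.363), and -0.15 without that mouse. In that mouse Mmp3 made up 40.32% of the summed FPKM of the 6 metalloproteinases, against 1.52 to 9.12% in the other 11. The genes closest to Mmp3 were Fcer1g, a receptor chain of myeloid cells (r = 0.948), Cdo1 (0.939) and the acute phase gene Saa3 (0.932), and all 3 were highest in the same mouse. Without it their r with Mmp3 was 0.751, 0.679 and 0.649.

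Mmp8 was low throughout, at 0.22, 0.09 and 1.18 FPKM in DMSO+Sham, 0.44, 0.03 and 0.03 in hispidulin+Sham, 0.74, 0.15 and 0.06 in DMSO+AB and 1.28, 1.09 and 0.67 in hispidulin+AB. All hispidulin+AB mice lay above all hispidulin+Sham mice, and they overlapped the DMSO+AB mice. On the log2(FPKM + 1) scale, the difference of hispidulin+AB was 0.79 against hispidulin+Sham and 0.64 against DMSO+AB, given with no test. On this scale the added 1 exceeds most of the values, so that differences of Mmp8 are understated. Of 10 neutrophil markers 4 were tested and limma called 0 in each comparison, and 3 of the 4 had an unadjusted p under 0.05 in hispidulin+AB against hispidulin+Sham, 0 in hispidulin+AB against DMSO+AB and 4 in the interaction. Their sums were 22.8 to 38.6 in hispidulin+AB, 1.06 to 14.6 in hispidulin+Sham, 5.41 to 27.3 in DMSO+AB and 9.93 to 66.7 in DMSO+Sham. The genes closest to Mmp8 were Retnlg (r = 0.941) and S100a8 (0.927), both from that marker list, and Pxn (0.911). The granule genes Mpo and Camp were at 0 in every mouse but the third DMSO+Sham mouse, where they were at 0.09 and 0.28 FPKM. The granule genes Ngp and Ltf were at 1.74 and 0.23 in that mouse and at most at 0.20 and 0.09 in the rest, and Ly6g did not exceed 0.37. The part of neutrophils in the Mmp8 values was not tested.

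Mmp9, the second gelatinase, was at 0.34, 0.39 and 1.16 FPKM in DMSO+Sham, 0.29, 0.08 and 0.23 in hispidulin+Sham, 0.35, 0.09 and 0.00 in DMSO+AB and 0.34, 0.62 and 0.27 in hispidulin+AB. It reached 1 FPKM only in the third DMSO+Sham mouse. The DMSO+Sham mice lay above the hispidulin+Sham mice with no overlap, with 0.34 and 0.29 FPKM as the closest values. Mmp9 was below the filter and is given with no test. Of the genes that were tested, 5.6% had no overlap in that comparison.

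**Figure D3:**
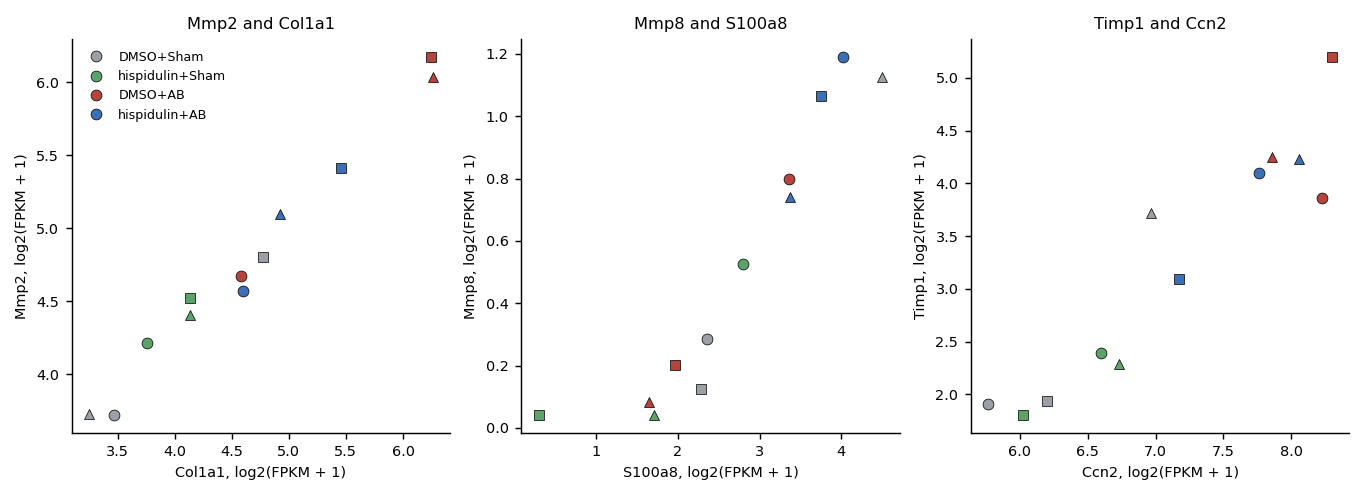
Level of Mmp2, Mmp8 and Timp1 (vertical axes) against the level of Col1a1, S100a8 and Ccn2 (horizontal axes), all as log2(FPKM + 1), with 1 point per mouse, colour for group and circle, square and triangle for mouse 1, 2 and 3. The second and the third DMSO+AB mice lie at the top of Mmp2 and Col1a1, and the third DMSO+Sham mouse is the highest for S100a8.

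Timp1, the inhibitor known for its induction by cytokines and injury, stood at 2.76, 2.82 and 12.2 FPKM in DMSO+Sham and at 13.5, 35.6 and 17.98 in DMSO+AB. It was 4.26, 2.50 and 3.89 in hispidulin+Sham and 16.2, 7.54 and 17.7 in hispidulin+AB. Within DMSO and within hispidulin all AB mice lay above all Sham mice, and Timp1 was the only member with no overlap in both. In DMSO+AB against DMSO+Sham 1 of the 9 tested members had no overlap, against 17.9% of all genes. In hispidulin+AB against hispidulin+Sham there were 5 of 9, with Mmp2, Mmp8, Mmp14 and Timp1 above and Mmp15 below, against 20.9% of all genes, and of these Mmp8 was tested because of its hispidulin+AB mice. Over both treatments Timp1 rose by 1.78 ± 0.34 on the log2(FPKM + 1) scale (SE, 6 AB mice against 6 Sham mice), with an adjusted p of 0.0117 in limma. The exact permutation test gave p = 0.005 (two-sided), the smallest that 400 arrangements allow. The difference was 1.91 ± 0.48 after DMSO (adjusted p = 0.0430 in limma) and 1.64 ± 0.48 with hispidulin (adjusted p = 0.482), and the interaction was -0.27 ± 0.69 with a 95% interval from -1.76 to 1.23.

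The call of Timp1 over both treatments was kept in 12 of 12 models that left out 1 mouse, with differences between 1.59 and 2.08 and adjusted p values in limma between 0.00164 and 0.037. In DMSO+AB against DMSO+Sham it was kept in 3 of 12, those without the third DMSO+Sham, the first DMSO+AB or the second hispidulin+AB mouse. Without any 1 of the other 9 mice the adjusted p was between 0.0589 and 0.163, and over all 23 settings it ran from 0.00564 to 0.263. Within the series of animal numbers, DMSO+AB minus DMSO+Sham was 2.31 (1 mouse against 1) and 0.81 (2 against 1), and hispidulin+AB minus hispidulin+Sham was 2.13 (1 against 2) and 1.31 (2 against 1). Leaving out together the 3 libraries with raised Myl7, a choice made after seeing the data, left 0 members called in both comparisons (0.171% and 0.634% of all genes). Mmp2 then differed by 0.95 (adjusted p = 0.254 in limma) and Timp1 by 1.51 (adjusted p = 0.136) over both treatments.

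The promoters of Timp1, Mmp3, Mmp8 and Mmp14 are shown because the third DMSO+Sham mouse had at least 2.18 times the mean of the other DMSO+Sham mice for each. For Timp1 it still lay below all DMSO+AB mice. Timp1 is also the called member for which the RefSeq promoter table held an entry. The table (build GRCm38.p6) held 8 of the 10 members, all but Mmp2 and Mmp9. Each sequence is the 250 bases ahead of the annotated start, written 5′ to 3′. Capitals mark the letters TGANTCA, a site form of AP-1, and AGGAAG, known as the PEA3 element of ETS factors, on either strand.
Timp1, chrX:20869916-20870165, plus strand: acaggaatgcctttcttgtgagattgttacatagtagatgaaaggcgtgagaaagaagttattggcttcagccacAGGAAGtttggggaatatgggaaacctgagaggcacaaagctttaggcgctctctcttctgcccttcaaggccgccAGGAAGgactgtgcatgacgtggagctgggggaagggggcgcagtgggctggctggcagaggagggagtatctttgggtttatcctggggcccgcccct
Mmp3, chr9:7445572-7445821, plus strand: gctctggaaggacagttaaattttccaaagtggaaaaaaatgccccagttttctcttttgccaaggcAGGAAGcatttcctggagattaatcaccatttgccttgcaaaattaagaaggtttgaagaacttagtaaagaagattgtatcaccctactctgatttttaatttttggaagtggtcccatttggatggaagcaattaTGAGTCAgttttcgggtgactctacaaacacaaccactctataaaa
Mmp8, chr9:7558179-7558428, plus strand: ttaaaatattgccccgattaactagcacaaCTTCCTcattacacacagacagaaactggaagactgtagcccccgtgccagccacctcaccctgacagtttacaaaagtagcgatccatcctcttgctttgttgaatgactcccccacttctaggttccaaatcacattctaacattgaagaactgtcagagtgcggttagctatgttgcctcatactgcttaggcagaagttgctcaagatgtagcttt
Mmp14, chr14:54431348-54431597, plus strand: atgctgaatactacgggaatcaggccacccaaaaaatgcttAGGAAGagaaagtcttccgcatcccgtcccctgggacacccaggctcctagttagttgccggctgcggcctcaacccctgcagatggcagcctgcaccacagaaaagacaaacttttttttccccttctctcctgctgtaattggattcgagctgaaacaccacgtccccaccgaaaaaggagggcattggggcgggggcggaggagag
Over the 300 bases of the table's entries, which also hold 50 bases after the start, TGANTCA was found in Mmp3 alone of the 8 members, as TGAGTCA, and in 7.81% of all 32851 entries. AGGAAG was found in 6 of 8 members, in 3 places in Timp1, and in 35.35% of all entries. These motifs do not overlap each other in the members shown. On either strand, the TATA box letters TATAAA were found in Mmp3 and Mmp8 and in 13.62% of all entries, and the GC box letters GGGCGG in 5 of 8 members and in 35.66% of all entries. These matches describe the letters of the window and do not show that a factor binds there.

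Timp3 stood at 115, 112 and 117 FPKM in DMSO+Sham, 120, 137 and 152 in hispidulin+Sham, 153, 101 and 103 in DMSO+AB and 154, 124 and 140 in hispidulin+AB. The hispidulin+Sham mice lay above the DMSO+Sham mice with no overlap, and Timp3 was the only tested member without overlap there. Among all tested genes 5.6% had no overlap in that comparison. The difference was 0.24 ± 0.15 (SE, limma, adjusted p = 0.9999), and with 1 mouse left out it ran from 0.16 to 0.33. The difference of Timp3 after banding was 0.03 ± 0.11 over both treatments, with a 95% interval from -0.20 to 0.27. Timp4 stood at 42.2 to 62.4 in DMSO+Sham, 55.8 to 60.3 in hispidulin+Sham, 56.8 to 63.4 in DMSO+AB and 51.8 to 58.6 in hispidulin+AB, and its difference over both treatments was 0.06 ± 0.09 with an interval from -0.14 to 0.26. The intervals of Timp3 and Timp4 were the narrowest of the 9 members. In the GENCODE annotation, Timp1, Timp3 and Timp4 lie inside the synapsin genes Syn1, Syn3 and Syn2 on the opposite strand. Timp3 shares 1733 of its 8144 exon bases with Syn3 and Timp4 shares 90 of 5894 with Syn2, and Timp1 shares 0. Whether counting used strand is not given in the sources used here. Syn1, Syn3 and Syn2 were at 0.05 to 0.24, 0.20 to 0.50 and 1.87 to 7.25 FPKM.

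The summed TIMP FPKM exceeded the summed FPKM of the 6 member metalloproteinases in every mouse, with a ratio of metalloproteinases to TIMPs between 0.190 and 0.384. The 13 other metalloproteinases measured, which summed to 13.87 to 27.02 FPKM, are not in this ratio or in the shares below. These are sums of RNA and do not measure active protein. The TIMP sum was 201 to 214 in DMSO+Sham, 222 to 264 in hispidulin+Sham, 252 to 267 in DMSO+AB and 238 to 260 in hispidulin+AB. The DMSO+AB mice lay above the DMSO+Sham mice, while the hispidulin groups overlapped. Of single genes tested, 17.9% had no overlap after DMSO, and no share was computed for sums. Timp3 made up 52.05 to 59.19% of the TIMP sum in 10 mice and 39.8 and 41.07% in the second and the third DMSO+AB mouse. In those mice Mmp2 made up 72.73 and 71.98% of the metalloproteinase sum, against 20.66 to 57.69% in the other 10. The first DMSO+AB mouse resembled neither, with 45.62% for Mmp2 and 57.41% for Timp3. The share of Timp1 in the TIMP sum was 1.03 to 5.7% in the 6 Sham mice and 3.17 to 14.0% in the 6 AB mice.

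**Figure D4:**
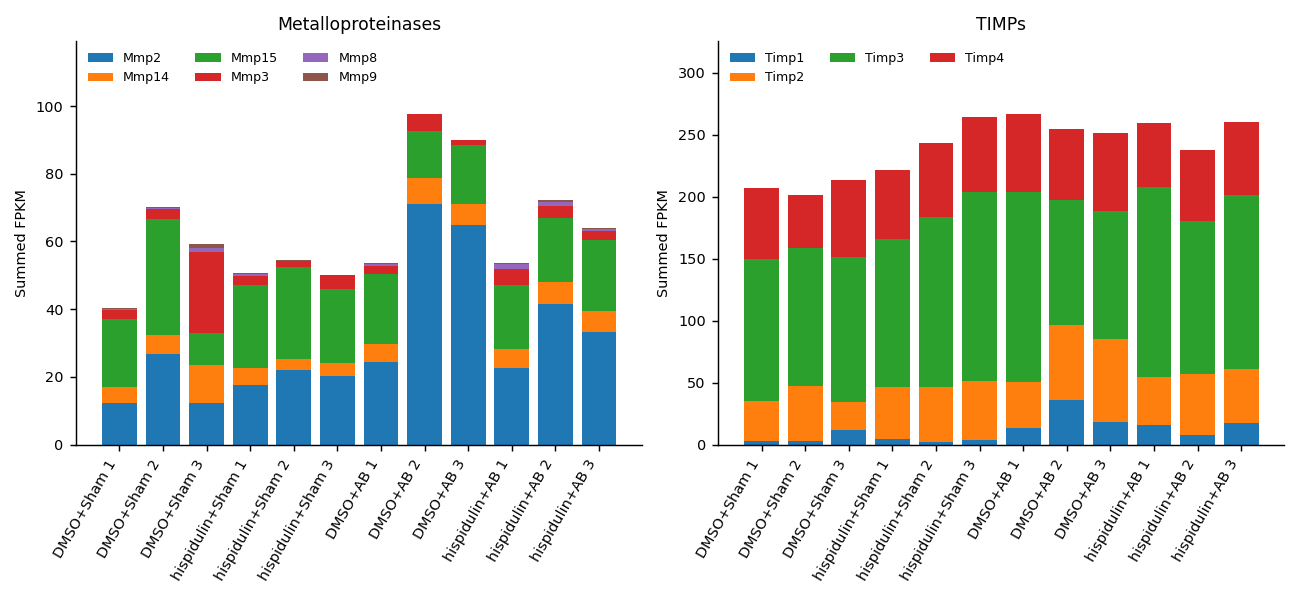
Stacked FPKM of the 6 metalloproteinases (left) and the 4 TIMPs (right) in each mouse, from 0. Mmp2 fills most of the metalloproteinase bar in the second and the third DMSO+AB mice, Mmp3 is largest in the third DMSO+Sham mouse, and Timp3 is the largest part of every TIMP bar.

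The third DMSO+Sham mouse moved the members in both directions. Against the mean of the other DMSO+Sham mice it was 7.61 times as high for Mmp8, 4.37 times for Timp1, 3.18 times for Mmp9 and 2.18 times for Mmp14, and it was at 0.348 times for Mmp15, 0.581 times for Timp2 and 0.627 times for Mmp2. Timp3 (1.03 times) and Timp4 (1.25 times) differed least from the other mice. Without it, Timp1 was called and Mmp2 was not in DMSO+AB against DMSO+Sham (differences 2.51 and 1.37, limma), and both were called over both treatments. Mmp8 turned from -0.15 to 0.16 and Mmp14 from -0.08 to 0.25 in DMSO+AB against DMSO+Sham. The part of inflammatory cells in these values was not tested.

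**Figure D5:**
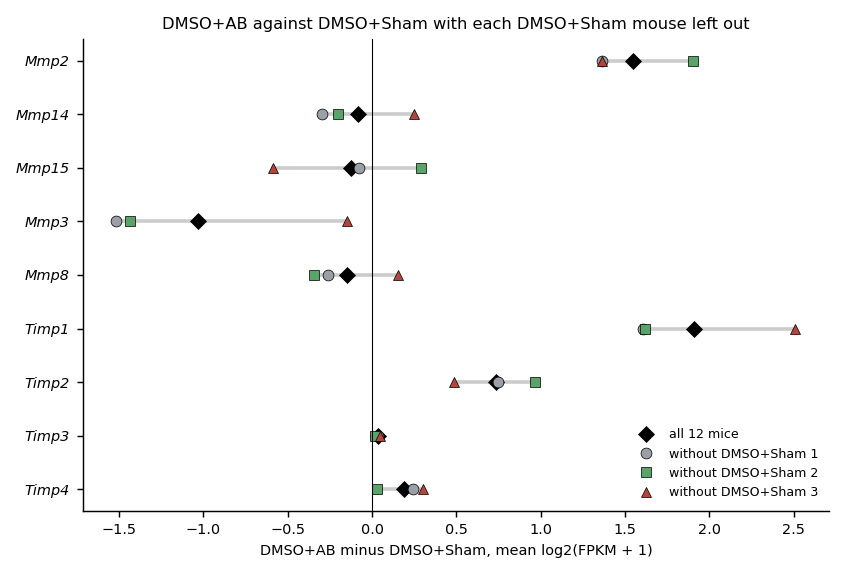
Difference of DMSO+AB and DMSO+Sham in mean log2(FPKM + 1) for the 9 genes tested, with all 12 mice (diamond) and with each DMSO+Sham mouse left out. Mmp3, Mmp14, Mmp8 and Timp1 move to the right and Mmp15 to the left without the third mouse, and Timp3 hardly moves.

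Whether hispidulin altered these genes in banded hearts was asked by hispidulin+AB against DMSO+AB. All 10 members overlapped between these groups, and 7.88% of all genes did not. The differences ran from -0.63 ± 0.48 (SE) for Timp1 to 0.64 for Mmp8, and Mmp8 is given with no test. Of the other 8 tested members, all had 95% intervals from limma that included 0. The intervals reached from -1.68 to 0.43 for Timp1 and from -0.41 to 0.16 for Timp4. With 1 mouse left out the difference of Timp1 ran from -0.91 to -0.24, and the smallest sizes were -0.24 without the second DMSO+AB and -0.27 without the second hispidulin+AB mouse. Within the series of animal numbers, hispidulin+AB minus DMSO+AB was -0.94 and -0.43 for Mmp2 and -0.02 and -0.93 for Timp1. In the Sham hearts, the difference of Mmp14 with hispidulin was -0.65 ± 0.24 (unadjusted p = 0.0208, adjusted p = 0.9999 in limma), and -0.31 without the third DMSO+Sham mouse.

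Of the other metalloproteinases, 13 of 17 were in the table and 6 were tested. Over both treatments limma called 0 of them, and 1 had an unadjusted p under 0.05. This was Mmp23, a membrane enzyme, which differed by 0.78 ± 0.23 (SE, limma, adjusted p = 0.0568). In DMSO+AB against DMSO+Sham Mmp23 rose by 1.23 ± 0.32 (adjusted p = 0.0464), with 4.86, 14.35 and 12.07 FPKM after AB and 3.87, 4.55 and 2.34 in Sham mice. Mmp24 ran from 3.12 to 5.16 FPKM over the 12 mice. Of 14 ADAM and ADAMTS proteases tested, 1 was higher and 1 lower over both treatments. Adamts2, which trims procollagens, rose by 0.86 ± 0.18 (adjusted p = 0.0150) and Adamts7 fell by 0.70 ± 0.12 on the log2 scale (adjusted p = 0.00804).

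Of 10 other inhibitors and cell surface partners tested, Thbs1, a matrix glycoprotein, rose over both treatments by 1.88 ± 0.46 (SE, limma, adjusted p = 0.0306) and Cd44, a receptor that can hold metalloproteinases at the surface, by 1.03 ± 0.24 (adjusted p = 0.0267). Reck, a membrane inhibitor of metalloproteinases, was not called (0.21 ± 0.12). Of 18 matrix substrates tested, 12 rose over both treatments and 0 fell, among them Col4a2 by 0.78 ± 0.12, Col4a1 by 0.88 ± 0.15 and Tnc, a glycoprotein of injured matrix, by 0.83 ± 0.14 (limma, adjusted p = 0.00398, 0.00742 and 0.00759). The median over the 18 was 0.89, against -0.026 for all genes. Of 12 inducing cytokines and AP-1 and ETS factors tested, 5 rose and 0 fell, among them Tgfb2 by 1.00 ± 0.11, Ccn2 by 1.51 ± 0.21 and Tgfb1 by 0.50 ± 0.09 (adjusted p = 0.00139, 0.00321 and 0.00984). Ccn2, a matrix protein induced by TGF-β, was also among the genes closest to Timp1 over the 12 mice (r = 0.937), behind Efhd2 (0.962) and Fxyd5 (0.951).

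Mmp14 was most like Fermt3, an integrin adaptor of blood cells (r = 0.944), the chemokine gene Cxcl16 (0.943) and Cotl1 (0.926), which were all highest in the third DMSO+Sham mouse. Without it their r was 0.904, 0.883 and 0.896. Timp2 was most like Islr (0.956), Fndc1 (0.955) and Gask1b (0.943), Timp3 like Ociad2 (0.904), Shroom4 (0.899) and Nrip1 (0.88), and Timp4 like Pcdhga7 (0.914), Zfp668 (0.843) and Polm (0.78). Between members the highest r was that of Mmp2 and Timp2 (0.859) and the lowest that of Mmp14 and Mmp15 (-0.794). Neutrophil, macrophage, endothelial, epicardial and adipocyte lists held 0 called genes over both treatments in limma, and 1 endothelial gene and no gene of the other 4 lists had an unadjusted p under 0.05. Of 8 smooth muscle and pericyte markers only Tagln was called, higher by 0.49 ± 0.13 (SE, limma, adjusted p = 0.0430). Of 6 atrial markers tested, Nppa, which hypertrophic ventricles also express, rose by 2.85 ± 0.57 (adjusted p = 0.0135) and Stard10 fell by 0.76 ± 0.14 (adjusted p = 0.0112). Among cardiomyocyte markers, 3 of 10 fell, the calcium handling genes Atp2a2 by 0.53 ± 0.10, Pln by 0.43 ± 0.11 and Ryr2 by 0.38 ± 0.10 on the log2 scale (limma, adjusted p = 0.0112, 0.0326 and 0.0418).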

How the data were processed

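RNA of left ventricular muscle was sequenced as single-end reads of 50 bases from polyadenylated RNA, 1 library per mouse, and groups followed the sample labels. The authors deposited FPKM as 1 table rounded to 0.01. Per the submitters' processing notes, HISAT2 2.0.4, Bowtie2 2.2.5, RSEM 1.2.12 and DESeq2 1.4.5 were used, with no roles named. The genome build and strand setting are not given in the sources used here. Low values did not step in whole reads (21.1% of 19442 ratios lay within 0.1 of a whole number, 20% if evenly spread), so count tests were not run. Symbols were found for 17947 genes in the RefSeq gene table.

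Genes that reached 1 FPKM in 3 or more of the 12 libraries were tested on log2(FPKM + 1) with limma 3.58.1 in R 4.3.3, with 1 mean per group, eBayes with trend and two-sided Benjamini-Hochberg adjustment over 11664 genes. Exact permutation tests (Python 3.11.15) used the means of log2(FPKM + 1). All 10 members are named. Of other lists, up to 3 called genes of smallest p over both treatments, or 2 of highest FPKM, could be named, and for each member the 3 genes of highest Pearson r; Reck, Myl7, the synapsin genes and the neutrophil granule genes were named after their values were seen. Members and lists were chosen with earlier results of these data known. The tests were checked on simulated data. Replicate numbers belong to different mice. P-values measure the spread between these mice. The result of 1 other list is not reported here.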

Additional observations from a re-analysis of the deposited data

How the results depend on the processing

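With 3 mice per group and unknown depth, few calls were secure, and of the calls of members only that of Timp1 for AB against Sham over both treatments was kept under every alternative planned. Calls of other genes were not followed one by one. The replicate block called the same 2 members, Mmp2 and Timp1, in DMSO+AB against DMSO+Sham (640 genes in all) and over both treatments (866), and changed no other count of members. Between groups, residuals of same-numbered mice correlated by -0.422 to 0.33 (mean 0.058). Those of mice with different numbers correlated by -0.404 to 0.382 (mean -0.029). The ranges are alike and show no pairing by number, but with 3 mice per group they cannot exclude it. Members called over both treatments were 1 with no filter, 1 with the number series as covariate and 0 without the 3 libraries of raised Myl7, and 1 to 2 with 1 mouse left out. In DMSO+AB against DMSO+Sham they were 0 with no filter, 0 with the number series (which leaves out the first DMSO+Sham mouse in effect), 0 with only the libraries compared, 0 without the 3 libraries, and 0 to 3 with 1 mouse left out. Fitting only the libraries compared or leaving out libraries uses fewer mice, and no filter tests 18079 genes. All genes called in DMSO+AB against DMSO+Sham were 608 as reported, 11 with only the libraries compared, 142 with the number series, 358 with no filter, 1423 with library weights and 20 without the 3 libraries. They were 91, 1053, 954, 97 and 191 without the first or the second DMSO+Sham or the first, the second or the third DMSO+AB mouse, and 395, 364 and 391 without the first hispidulin+Sham or the first or the third hispidulin+AB mouse. Over both treatments they were 862 as reported, 547 with the number series, 2535 with library weights and 74 without the 3 libraries, and ran from 376 (without the third hispidulin+AB mouse) to 1220 with 1 mouse left out. They were 457, 436, 407, 508, 444 and 571 without the first DMSO+Sham, the first or the second hispidulin+Sham, the second DMSO+AB, or the first or the second hispidulin+AB mouse. In hispidulin+AB against hispidulin+Sham, with 0 as reported, 17 were called with the replicate block, 49 with only the libraries compared and 209 with library weights, with Timp1 among the last, and with Mmp8, which was tested because of its hispidulin+AB mice and is no support. The cause was not tested.

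All other changes of direction were of uncalled differences, on the log2(FPKM + 1) scale. With library weights, DMSO+AB against DMSO+Sham was 0.27 for Mmp14, 0.0083 for Mmp8 and -0.00047 for Timp3, Mmp3 over both treatments was 0.20, and Timp1 in hispidulin+Sham against DMSO+Sham was 0.015. With the number series, hispidulin+AB against hispidulin+Sham was -0.066 for Mmp3, 0.049 for Timp2 and -0.014 for Timp3, and Timp3 over both treatments was -0.0022. With quantile normalization Timp3 was -0.019 after DMSO, -0.0060 with hispidulin and -0.013 over both. Without the 3 libraries, Mmp15 was 0.014 in DMSO+AB against DMSO+Sham, hispidulin+AB against DMSO+AB was 0.022 for Mmp14 and -0.0014 for Mmp15, and Timp2 in hispidulin+AB against hispidulin+Sham was 0.0021. With 1 mouse left out, DMSO+AB against DMSO+Sham ran from -0.30 to 0.25 for Mmp14, -0.59 to 0.29 for Mmp15, -0.37 to 0.16 for Mmp8 and -0.16 to 0.14 for Timp3. Over both treatments the ranges were -0.61 to 0.071 for Mmp3, -0.064 to 0.085 for Timp3 and -0.020 to 0.12 for Timp4. In hispidulin+AB against hispidulin+Sham they were -0.14 to 0.044 for Timp2 and -0.056 to 0.12 for Timp3. In hispidulin+Sham against DMSO+Sham they were -0.087 to 0.79 for Mmp15, -0.66 to 0.24 for Timp1 and -0.030 to 0.25 for Timp4, and Mmp14 in hispidulin+AB against DMSO+AB ran from -0.17 to 0.053.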

Other observations

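Several genes of the lists had a pattern in the AB mice that differed from that of Mmp2. They were picked after their values were seen, and no test was made. The AP-1 gene Fos was at 10.98, 1.72 and 0.77 FPKM in DMSO+AB and at 7.67, 1.30 and 11.9 in hispidulin+AB, against 0.37 to 2.24 in the 6 Sham mice. Thbs1 was at 25.7, 11.4 and 4.32 in DMSO+AB and at 16.8, 2.90 and 19.0 in hispidulin+AB, against 0.84 to 4.09 in the Sham mice. The protease gene Adamts1 was at 59.4, 17.7 and 16.6 in DMSO+AB and at 30.4, 17.1 and 35.6 in hispidulin+AB, against 7.08 to 17.41 in the Sham mice. Plaur, the receptor of urokinase, was at 6.69, 2.42 and 1.78 and at 4.76, 1.33 and 3.93. In the Sham mice Plaur ran from 1.04 to 5.88, so that only the first DMSO+AB mouse lay outside their range. Among the 6 AB mice these genes were highest in the first DMSO+AB and the first and the third hispidulin+AB mice, whereas Mmp2 was highest in the second and the third DMSO+AB and the second hispidulin+AB mice.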
